A study of Mus musculus with 30 samples.

Results

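Superoxide and hydrogen peroxide are by-products of respiration and of monoamine breakdown, and the brain, which burns much oxygen, depends on enzymes that remove them. Superoxide dismutases turn superoxide into hydrogen peroxide. Catalase, the glutathione peroxidases and the peroxiredoxins then break peroxides down, using glutathione or thioredoxin as the source of electrons in the latter families. The genes described here are the 10 of that first line: Sod1, Sod2, Cat, Gpx1, Gpx4, Prdx1, Prdx2, Prdx3, Prdx5 and Prdx6. They were chosen by name, as all probe sets (groups of short probes against a transcript) whose annotated gene symbol is exactly one of these. 7 of the 10 genes had such a probe set, with 13 probe sets in all among 22626 on the array, and 12 of the 13 were tested, having a log2 mean over the 30 arrays of 4 or more. The 5 probe sets of Prdx1, a cytosolic peroxiredoxin, are annotated together with its pseudogene Gm21399, so no value is given for them. Prdx5 and Prdx6 had no probe set with that symbol in the annotation used here.

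Expression was measured in the forebrain of 30 male C57BL mice with Affymetrix MOE430A arrays, 1 mouse per array. The mice, given as 4 weeks old in the labels, were untreated (10) or drank water with clozapine at 12 mg/kg/day (10) or haloperidol at 1.6 mg/kg/day (10) for 12 weeks. No group carried a transgene or other agent in the labels. The source label gives the right hemisphere and the tissue label the left. Haloperidol is a typical antipsychotic that mainly blocks the dopamine D2 receptor, and clozapine is an atypical one with a broad receptor profile. Each drug was compared with the untreated mice, and the drugs with each other.

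The median log2 value of an array was 4.63 to 4.88. Grouped by average linkage on their correlation, the arrays formed clusters that cut across treatment: cluster A with 11 arrays (3 control, 3 clozapine, 5 haloperidol), cluster B with 8 (4, 1 and 3), cluster C with 7 (2, 5 and 0) and 4 arrays on their own (control 1, clozapine 7, haloperidol 2 and haloperidol 7). The clusters partly followed replicate number. Cluster A held controls 2, 3 and 5, clozapine 3, 4 and 5, and haloperidol 1, 3, 4, 5 and 6. Cluster B held controls 7, 8, 9 and 10, haloperidol 8, 9 and 10, and clozapine 1. Cluster C was mixed, with controls 4 and 6 and clozapine 2, 6, 8, 9 and 10. The labels name no batch. How far the 3' probe sets for Gapdh and Actb exceeded the 5' ones, which rises as RNA degrades, had medians of 0.62, 0.57 and 1.05 in A, B and C and reached 4.09 in control 1 and 2.45 in haloperidol 7. Of 8 forebrain markers 4 were measured, all at a mean of at least 4: Tbr1 of cortex had a mean log2 value of 8.50, Ppp1r1b and Penk of striatum 8.65 and 10.88, and Neurod6 8.04. Of 8 cerebellar markers, Pcp2, Gabra6, Cbln3 and En2 lay below a mean of 4, and the other 4 did not. Of 7 erythrocyte markers 3 were measured, Hba-a1, Alas2 and Slc4a1, and none reached a mean of 4; this bears on Prdx2 and Cat, which red cells also hold. Their summed level ran from 4.10 to 5.05 on the log2 scale in controls, from 4.40 to 6.58 with clozapine and from 4.28 to 5.14 with haloperidol, and the part of red cells in the Prdx2 and Cat values was not tested. The summed level of 9 astrocyte markers ran from 13.33 to 13.75, 13.45 to 13.69 and 13.46 to 13.77 in the same order. That of 9 measured neuron markers ran from 14.17 to 14.81, 14.25 to 14.82 and 14.05 to 14.87, with medians of 14.73, 14.64 and 14.43. Of 13 tested neuron marker sets, 3 were higher with clozapine than in controls and 2 with haloperidol, beside 55.3% and 43.5% of all tested probe sets. None passed the threshold given below. In a whole tissue, fewer cells of a type and less RNA per cell cannot be told apart.

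Many genes of this defence are induced through the antioxidant response element, which the transcription factor Nrf2 binds. Its core, TGACNNNGC, was searched on both strands of RefSeq windows (GRCm38.p6) from 250 bases before to 50 after a gene's start. The core was found in 12.4% of all 32851 windows. Sites outside these windows were not searched. Of the 12 windows of the 9 members that had one, 2 held it, a share close to that of all windows. With so few windows, whether the core is more or less common in these genes cannot be said. Both stretches are printed to show what such a match looks like, with the matched bases (on the strand opposite to the gene) in capitals. The Sod1 match lies 56 to 48 bases before the start, within chr16:90220681-90220739 on the plus strand, and the Prdx1 match 133 to 125 bases before it, within chr4:116685441-116685499, also on the plus strand. A match is a description of the letters and not evidence of binding.
Sod1: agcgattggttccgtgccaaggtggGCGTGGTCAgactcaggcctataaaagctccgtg
Prdx1: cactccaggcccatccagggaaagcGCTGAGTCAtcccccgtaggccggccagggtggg

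No member differed between the treatment groups past the threshold, in any of the 3 comparisons. Limma called 0 of the 12 tested member probe sets at an adjusted p under 0.05, against 0 of 12944 over all probe sets (0%). At an unadjusted p under 0.05 it had 0 of 12 members in clozapine against control, where 4.35% of all tested probe sets (563) passed that level (2.12% higher and 2.22% lower), and 0 of 12 in haloperidol against control, where 2.3% (298) did (0.834% higher and 1.47% lower). In clozapine against haloperidol it had 1 of 12, that of Prdx3, where 3.14% (406) did (2.21% higher and 0.927% lower). Of all tested probe sets, 55.3%, 43.5% and 60.7% had a difference above 0 in these comparisons. The median member difference was 0.026 on the log2 scale for clozapine minus control (7 of 12 higher), beside 0.023 over all tested probe sets. It was -0.027 for haloperidol minus control (6 of 12 higher), beside -0.030. It was 0.024 for clozapine minus haloperidol (6 of 12 higher), beside 0.050. The 3 comparisons share arrays, so they are not independent of each other.

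**Figure D1:**
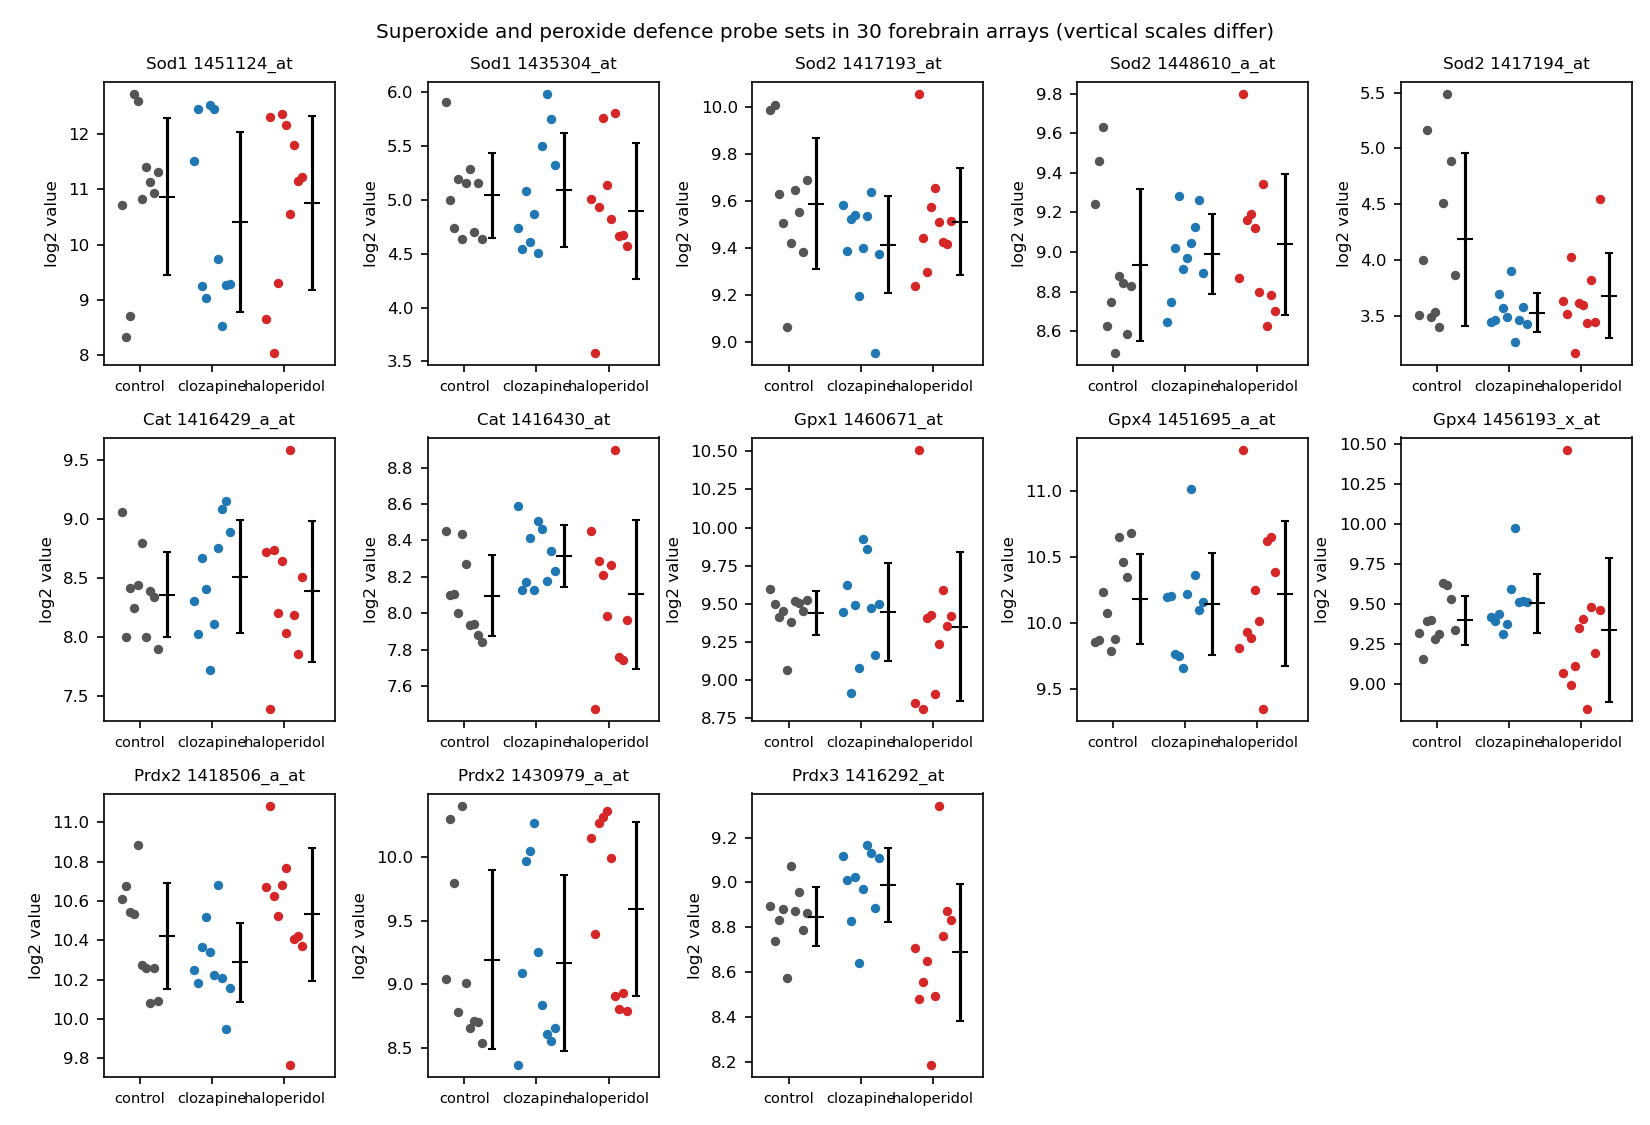
Log2 value (vertical axis, a separate scale per panel) of each of the 13 member probe sets in control, clozapine and haloperidol arrays; points are arrays, with replicates 1 to 10 from left to right, and the black bar is the mean ± SD (n = 10). The groups overlap in every panel, and haloperidol 2 is the highest array for Gpx1, both Gpx4 sets, both well-expressed Sod2 sets and 1 Prdx2 set.

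The intervals show how large a change could have gone unseen. Leaving aside the Sod1 set 1451124_at, the 95% interval of a member's difference reached at most between 1.255-fold and 1.56-fold, up or down, in clozapine against control. It reached between 1.21-fold and 2.01-fold in haloperidol against control, and between 1.26-fold and 2.05-fold in clozapine against haloperidol. A p that misses the threshold therefore leaves room for changes within these bounds, and it does not show that the drugs act alike.

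**Figure D2:**
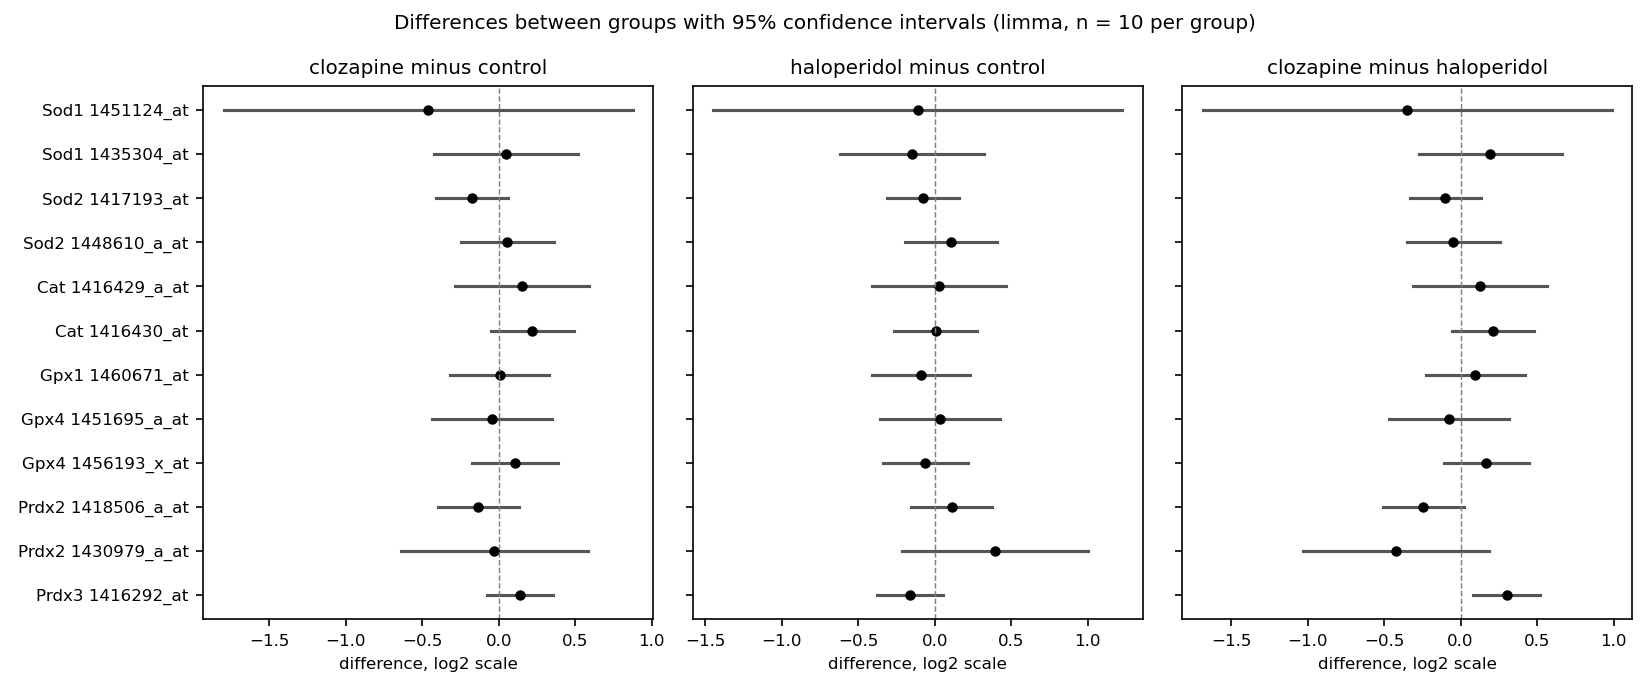
Difference between groups on the log2 scale (horizontal axis) for the 12 tested member probe sets, with its 95% confidence interval from limma (lines; n = 10 per group). All intervals cross 0 except that of Prdx3 in clozapine minus haloperidol, which runs from 0.084 to 0.52.

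Sod1, the copper and zinc superoxide dismutase of the cytosol, varied more between mice than any other member, with no relation to treatment that the test could find. On the log2 scale its set 1451124_at ran from 8.34 through a median of 11.04 to 12.72 in controls. It ran from 8.54 through 9.52 to 12.53 with clozapine and from 8.05 through 11.19 to 12.36 with haloperidol. Each group therefore held arrays near 8 to 9 and arrays above 12, a span of 4.67 over all 30 arrays. Its SD over them was larger than that of 98.4% of the tested probe sets, whose median SD was 0.43. Clozapine minus control was -0.46 (SE 0.65, 95% interval -1.80 to 0.88), a fold of 0.726, and limma gave an adjusted p of 0.9997. Haloperidol minus control was -0.11 (SE 0.65) and clozapine minus haloperidol -0.35 (SE 0.65). The spread was uneven over the array clusters: the 8 arrays of B lay between 10.94 and 11.80, while those of A ran from 8.05 to 12.59 and those of C from 8.54 to 12.72. The clozapine minus control difference was 0.39 within A, 0.31 within B with 1 clozapine array, and -1.37 within C.

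The other Sod1 set, 1435304_at, did not share this pattern. It was low on the array, with medians of 5.08 in controls, 4.97 with clozapine and 4.88 with haloperidol, and it was highest where 1451124_at was low in the clozapine group (5.98 in clozapine 8, with 8.54 for the first set). Its differences were 0.047 (SE 0.23), -0.15 (SE 0.23) and 0.20 (SE 0.23) in the 3 comparisons, clozapine minus control, haloperidol minus control and clozapine minus haloperidol. By contrast, 42 other tested probe sets followed 1451124_at closely, with a Pearson correlation of at least 0.9 over the 30 arrays after group and cluster means were taken out. Each of the 4 arrays on their own was a cluster here and so became 0 for every probe set. The correlation therefore rests on the arrays of A, B and C. These 42 were themselves widely spread, with a median SD of 1.12. The closest was Cplx2, a complexin of the synaptic release machinery (r = 0.99, rho = 0.98), which ran from 2.65 to 10.93 in clozapine arrays. Such a likeness was rare among the other members: Sod2 and Gpx1 each had 1 probe set at that level, and the remaining sets had 0.

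Prdx2, a cytosolic peroxiredoxin that is abundant in neurons, followed the array clusters. Its set 1430979_a_at had a median of 8.90 in controls (8.54 to 10.39), of 8.97 with clozapine (8.37 to 10.26) and of 9.69 with haloperidol (8.79 to 10.36). Every cluster A array lay between 9.79 and 10.39, and no other array was above 9.40, which was haloperidol 2. Such a complete separation of A from the other 19 arrays was seen upward in 2.77% of the tested probe sets (359), and since all tested probe sets entered the clustering it is a description. Haloperidol minus control was 0.40 (SE 0.30, 95% interval -0.21 to 1.01) over all arrays, and 0.051 within A and 0.19 within B. Cluster A holds 5 of the 10 haloperidol arrays and 3 of the 10 controls; the part of that imbalance in the difference was not tested beyond these within-cluster values. With cluster as a block the difference was 0.11 (SE 0.11), and with arrayWeights, a limma option that weights arrays by their spread, 0.78 (SE 0.25, adjusted p = 0.149 by limma); over all alternatives it ran from 0.11 to 0.78 and was called in none. For clozapine minus control it was -0.028 (SE 0.30).

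The second Prdx2 set, 1418506_a_at, gave a median of 10.40 in controls (10.08 to 10.89), 10.24 with clozapine (9.95 to 10.68) and 10.58 with haloperidol (9.77 to 11.08). The groups overlapped: haloperidol 2 was the highest and haloperidol 7 the lowest of all 30 arrays. Haloperidol 8, 9 and 10 lay between 10.37 and 10.42, below controls 1 to 5, none of which is of their cluster B. They lay above the controls of B, controls 7 to 10 (10.08 to 10.26). Clozapine minus haloperidol was -0.24 (SE 0.13, unadjusted p = 0.0691 by limma, adjusted p = 0.965), with 9 of 10 clozapine arrays below the haloperidol mean. It was -0.25 within A and -0.15 within B, where 1 clozapine array stands against 3. Against controls, the clozapine difference was -0.13 (SE 0.13) and the haloperidol difference 0.11 (SE 0.13). The haloperidol difference was -0.049 within A and 0.23 within B.

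Prdx3, the peroxiredoxin of the mitochondrial matrix, had the smallest p of all members. On the log2 scale it ran from 8.57 through a median of 8.87 to 9.08 in controls, from 8.64 through 9.02 to 9.17 with clozapine and from 8.19 through 8.68 to 9.34 with haloperidol. The groups overlapped, with 4 of the 10 haloperidol arrays below the lowest clozapine array, while haloperidol 7, an array with a wide 3' minus 5' difference, was the highest of all 30. Clozapine minus haloperidol was 0.30 (SE 0.11, 95% interval 0.084 to 0.52), or 1.23-fold, with 9 of 10 clozapine arrays above the haloperidol mean. Its unadjusted p was 0.00815 and its adjusted p 0.965 by limma, so it did not pass the threshold. The difference was 0.31 within cluster A (3 arrays against 5) and 0.30 within B (1 against 3), and C held no haloperidol array. Without haloperidol 7 it was 0.37 (SE 0.093, adjusted p = 0.283 by limma). Against the controls the drugs lay on either side, with 0.14 (SE 0.11) for clozapine and -0.16 (SE 0.11) for haloperidol.

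**Figure D3:**
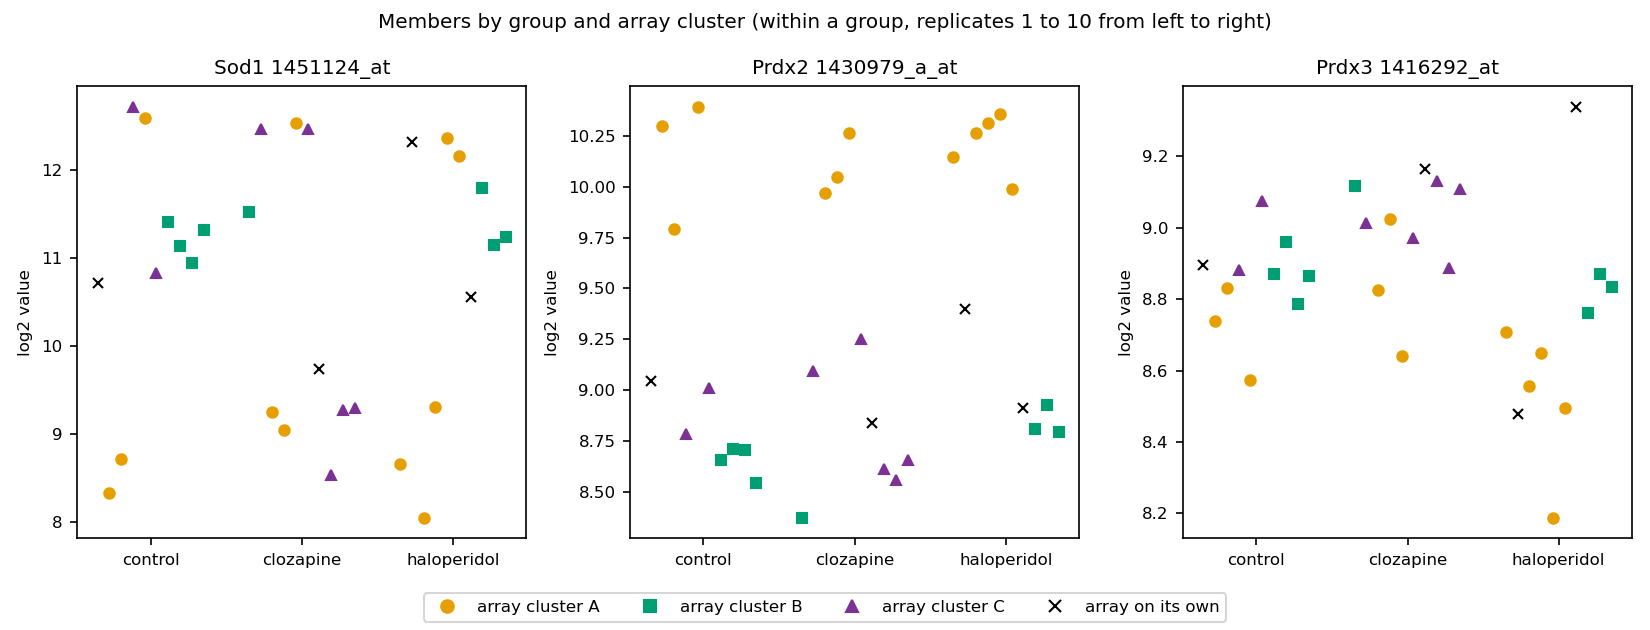
Log2 value (vertical axis) of Sod1 1451124_at, Prdx2 1430979_a_at and Prdx3 1416292_at by treatment group, with replicates 1 to 10 from left to right and the marker giving the array cluster. For Prdx2 the 11 cluster A arrays, at 9.79 or more, stand above the others in all 3 groups; for Sod1 cluster A spans 8.05 to 12.59; for Prdx3, 4 of the 10 haloperidol arrays lie below the lowest clozapine array (8.64) and haloperidol 7 lies above the highest.

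Cat, the catalase of peroxisomes, had its highest mean in clozapine-treated mice in both of its sets. Set 1416430_at had a median of 8.05 in controls (7.84 to 8.45), 8.29 with clozapine (8.13 to 8.59) and 8.10 with haloperidol (7.48 to 8.89). All 10 clozapine arrays lay above the control mean of 8.10, while the ranges overlapped. Clozapine minus control was 0.22 (SE 0.13, 95% interval -0.052 to 0.49), or 1.16-fold, with an unadjusted p of 0.109 and an adjusted p of 0.9997 by limma. The 3 cluster A clozapine arrays exceeded the controls of that cluster by 0.024, the 5 of cluster C by 0.14 and the 1 of cluster B by 0.69. With arrayWeights it was called (0.35, SE 0.092, adjusted p = 0.015), in a fit that called 13.4% of all tested probe sets and gave controls 7 to 10, all of cluster B, weights of 3.44 to 4.86. With both those weights and cluster as a block it was 0.20 and not called (adjusted p = 0.664 by limma). Haloperidol minus control was 0.0074 (SE 0.13). The other set, 1416429_a_at, had 0.15 (SE 0.21) for clozapine minus control and 0.028 (SE 0.21) for haloperidol minus control.

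Sod2, the manganese superoxide dismutase of mitochondria, differed little. Set 1417193_at had medians of 9.59 in controls (9.06 to 10.00), 9.46 with clozapine (8.95 to 9.64) and 9.48 with haloperidol (9.24 to 10.05). Clozapine minus control was -0.17 (SE 0.12, unadjusted p = 0.14, adjusted p = 0.9997 by limma), 9 of the 10 clozapine arrays lying under the mean of the controls, and haloperidol minus control -0.076 (SE 0.12). Set 1448610_a_at went the other way over all arrays, at 0.057 (SE 0.15) and 0.11 (SE 0.15). Its clozapine minus control difference was -0.21 within cluster A, -0.14 within B with 1 clozapine array, and 0.44 within C. Its haloperidol minus control difference was -0.25 within A and -0.080 within B. Over the alternative fits the latter comparison ran from -0.15 to 0.14. The third set, 1417194_at, had a mean of 3.80 and stayed out of the test. It lay between 3.26 and 3.90 in all clozapine arrays and between 3.17 and 4.55 with haloperidol. In controls it reached 5.48, with 4 arrays above 4.50 (controls 3, 7, 8 and 9) and 3 of these in cluster B. In a fit with no filter on low values clozapine minus control was -0.65 (SE 0.22, adjusted p = 0.641 by limma) and haloperidol minus control -0.50 (SE 0.22, adjusted p = 0.926), with 10 of 10 and 9 of 10 arrays below the control mean. The brighter Sod2 sets gave the -0.17 and 0.057 above.

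The glutathione peroxidases Gpx1, which reduces soluble peroxides, and Gpx4, which reduces lipid peroxides in membranes, had group differences that did not pass the test, and 1 array, haloperidol 2, moved several of them. Both are selenoproteins. Gpx1 had a median of 9.48 in controls (9.07 to 9.60), 9.48 with clozapine (8.91 to 9.93) and 9.38 with haloperidol (8.82 to 10.51). Clozapine minus control was 0.0057 (SE 0.16, 95% interval -0.32 to 0.33) and haloperidol minus control -0.091 (SE 0.16). The 10.51 is haloperidol 2, and the next haloperidol array is at 9.59. Gpx4 set 1451695_a_at had medians of 10.15, 10.18 and 10.13 in control, clozapine and haloperidol arrays, with -0.041 (SE 0.19) for clozapine minus control and 0.036 (SE 0.19) for haloperidol minus control. Set 1456193_x_at had medians of 9.37, 9.48 and 9.27, with 0.11 (SE 0.14) and -0.061 (SE 0.14). Clozapine minus haloperidol was 0.17 (SE 0.14) in this set and -0.077 (SE 0.19) in the first, but haloperidol 2 was the highest of all arrays in both, at 11.31 and 10.46. Without it these differences were 0.29 (SE 0.097, adjusted p = 0.741 by limma) and 0.044 (SE 0.17), both above 0 in that fit. That fit leaves out a high array on the haloperidol side only. Within cluster A (3 clozapine arrays against 5) the difference was 0.19 in 1456193_x_at and -0.25 in 1451695_a_at. Within B (1 against 3) it was 0.038 and -0.36. Clozapine 7 was the highest clozapine array in both sets, at 11.01 in 1451695_a_at (next 10.36) and 9.97 in 1456193_x_at (next 9.59). No fit left out clozapine 7. With both arrays left out of the plain group means, clozapine minus haloperidol is below 0 in 1451695_a_at and above 0 in 1456193_x_at. The 2 sets therefore do not share a direction once both high arrays are left out. For Gpx1, clozapine minus haloperidol was 0.096 (SE 0.16) with haloperidol 2 and 0.22 (SE 0.13) without it, and haloperidol minus control was then -0.22 (SE 0.13). By cluster the first set was lowest in A, with a median of 9.87, and highest in B, with 10.54.

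Over the 12 tested member sets, treatment accounted for a median of 4.26% of the variance between arrays and array cluster for 63.8%, beside 4.74% and 66.1% over all tested probe sets. The clusters were cut from these same values, so a high cluster share was built in. They also had 7 levels, with each of the 4 arrays on their own as 1, against 3 treatment groups. The treatment and cluster shares are therefore not a like comparison. The genes most like the brightest set of each other member over the 30 arrays, group and cluster means taken out, were Tmem208 for Sod2 (r = 0.91, rho = 0.79), Dmxl1 for Cat (r = 0.86, rho = 0.83), Slc25a28, a mitochondrial iron carrier, for Gpx1 (r = 0.90, rho = 0.86), Eif3k, a translation initiation factor subunit, for Gpx4 (r = 0.82, rho = 0.79), Btf3 for Prdx2 (r = 0.82, rho = 0.82) and Akirin2 for Prdx3 (r = 0.86, rho = 0.85). Each has the highest Pearson correlation among tested probe sets with 1 gene symbol that is no member, and no test was made of it.

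The genes that supply and surround these enzymes did not stand apart either. In 6 further lists with 51 tested genes and 79 tested probe sets, limma called 0 in each comparison, and 1, 0 and 0 had an unadjusted p under 0.05 in clozapine against control, haloperidol against control and clozapine against haloperidol. The 1 was Gsr, the reductase that restores glutathione, at 0.25 (SE 0.12, unadjusted p = 0.0495, adjusted p = 0.9997 by limma) for clozapine minus control. Over all tested probe sets, 4.35%, 2.3% and 3.14% passed that level in the same order of comparisons. Of them, 55.3% were higher with clozapine than in controls and 43.5% with haloperidol. In the thioredoxin system, which feeds electrons to the peroxiredoxins, 16 of 26 probe sets were higher with clozapine than in controls (median difference 0.055), 11 of 26 with haloperidol. Its smallest p in the first comparison was that of Txnl1, at 0.39 (SE 0.21); another Txnl1 set had it for haloperidol minus control, at -0.37 (SE 0.22), and clozapine minus haloperidol, at 0.42 (SE 0.22). In the glutathione system 11 of 19 were higher with clozapine and 7 of 19 with haloperidol, where the smallest p was that of Gclc, the catalytic subunit of the enzyme that starts glutathione synthesis, at -0.27 (SE 0.14), and in clozapine minus haloperidol it was that of Gsto1, a glutathione transferase, at 0.14 (SE 0.14).

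The counts below stand beside 55.3% of all tested probe sets higher with clozapine than in controls, and 43.5% with haloperidol. Among the other peroxidases 5 of 6 sets were higher with clozapine and 5 of 6 with haloperidol than in controls. Of the 6 sets, 3 are those of 1 gene. That gene, Prdx4, the peroxiredoxin of the endoplasmic reticulum, had the smallest p for clozapine minus control, at 0.22 (SE 0.11), and between the drugs, at 0.13 (SE 0.11). For haloperidol minus control it was Gpx8, at -0.14 (SE 0.16). Of Nrf2 axis genes and targets 16 of 22 were higher with clozapine (smallest p for Mafg, a partner of Nrf2, at 0.25, SE 0.18) and 10 of 22 with haloperidol (Me1, a source of NADPH, at -0.44, SE 0.26); between the drugs the smallest p was that of Msrb1, a methionine sulfoxide reductase, at 0.31 (SE 0.21). Among sources of superoxide and peroxide 4 genes were tested, and 1 of 5 probe sets was higher with clozapine and 3 of 5 with haloperidol; Maoa, which makes peroxide from monoamines, had the smallest p for haloperidol minus control, at -0.25 (SE 0.18), and between the drugs, at 0.20 (SE 0.18), and Nos3, the endothelial nitric oxide synthase, for clozapine minus control, at 0.064 (SE 0.11). Ccs, the chaperone that loads copper into Sod1, had 0.18 (SE 0.20) for clozapine minus control, 0.027 (SE 0.20) for haloperidol minus control and 0.15 (SE 0.20) between the drugs. None of these passed the threshold.

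**Figure D4:**
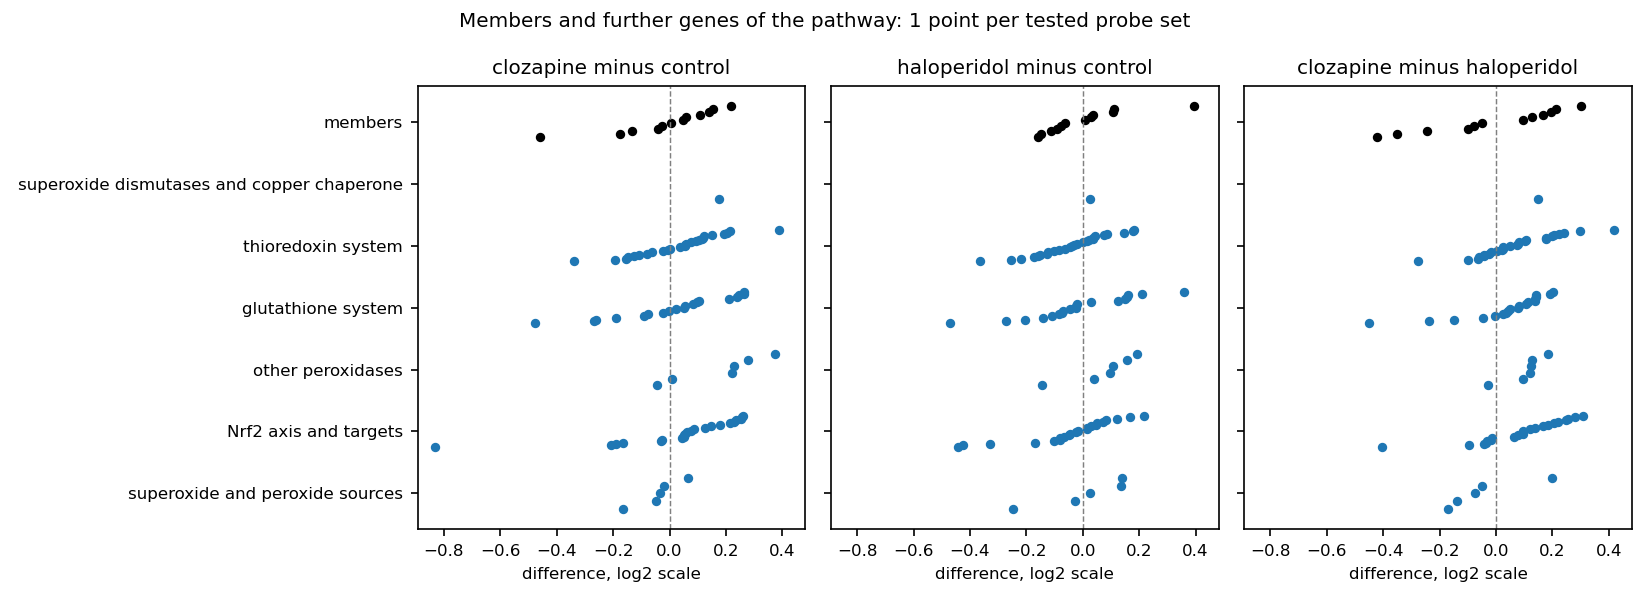
Difference on the log2 scale (horizontal axis) of each tested probe set, 1 point each, for the members and the 6 further lists, in the 3 comparisons; vertical position within a list only separates the points. Each list lies on both sides of 0 in each panel except that of dismutases and their chaperone, whose 1 tested set (Ccs) is above 0 in all 3; no point passed the limma test.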

How the data were processed

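GCRMA, which the submitters' processing notes name, gave the log2 values that the authors deposited, 1 for each probe set on each array. The sources used here do not give its version or which arrays were normalized together. GCRMA corrects background by probe sequence and compresses differences near it. Of 22690 rows, 64 are Affymetrix controls, which were dropped; 12944 of the remaining 22626 had a mean of at least 4 and were tested. Groups came from the sample titles. Names came from the supplied platform annotation (20380 probe sets with 1 symbol, 691 with several, 1555 with none); none was used from a probe set with several.

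Limma 3.58.1 (R 4.3.3; lmFit, eBayes) fitted group means over all 30 arrays, leaving 27 residual degrees of freedom. Tests are two-sided, and p was adjusted over all tested probe sets by Benjamini-Hochberg. The fit was tested on simulated data. Array clusters came from average linkage on 1 minus Pearson correlation, cut into 7. The number of arrays limits the precision. Members and lists were chosen with earlier results of these data known. Named were all members, the smallest p of each further list in each comparison, the gene most alike to each member, and Gsr, the 1 further gene with an unadjusted p under 0.05. Single arrays were named after their values were seen.

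Replicate numbers run from 1 to 10 in every group. Deviations from the group means correlated above 0.1 in 17 of 30 same-numbered pairs, from -0.50 through a median of 0.16 to 0.80. Some same-numbered mice were thus alike and others were not. The labels name no pairing, so the main fit did not pair the mice by number. A fit with the replicate number as a block is given below.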

Additional observations from a re-analysis of the deposited data

Results flagged for a closer look

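Of 39 sets of 10 values (13 probe sets in 3 groups), 7 held a highest or lowest array whose gap to its neighbour was large against the range of the group. For separate sets chance alone gives about 1 such case in 20. The 39 sets share the same arrays and are not independent, so the count cannot be set against that rate. Among the haloperidol arrays, haloperidol 2 was the highest for Sod2 1417193_at at 10.05 (next 9.65), for Gpx1 at 10.51 (next 9.59) and for Gpx4 1456193_x_at at 10.46 (next 9.48). Among the clozapine arrays, clozapine 7 was the highest for both Gpx4 sets, at 11.01 (next 10.36) and 9.97 (next 9.59). Control 1 was the highest control for Sod1 1435304_at at 5.91 (next 5.29). Control 5 was the lowest control for Gpx1 at 9.07 (next 9.38). Control 1, clozapine 7 and haloperidol 2 are 3 of the 4 arrays that joined no cluster.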

How the results depend on the processing

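Alternatives were no filter on low values, a minimum mean of 6, quantile normalization, centring each array on its median, the replicate number or the array cluster as a block, the 3' minus 5' difference as a covariate, arrayWeights, leaving out control 1, haloperidol 2 and haloperidol 7 (singly and together), and fitting the compared groups alone. Weights together with the cluster block were added after seeing the data. With arrayWeights, 1731 probe sets were called in clozapine against control (863 higher), and 1 member probe set, Cat 1416430_at. In haloperidol against control, 1 probe set was called with the cluster as a block and 5 with weights and that block, none of them a member. Limma called 0 in all other cases. With the replicate block it called 0 in each comparison (846, 540 and 642 at an unadjusted p under 0.05), and no call changed; same-numbered mice correlated between -0.50 and 0.80, with 5 of 30 such pairs the most alike. Prdx3 in clozapine minus haloperidol stayed between 0.27 and 0.37, with adjusted p from 0.136 to 0.988 by limma. Of 36 member differences, 20 kept their direction under every alternative run. Sod2 1417194_at lies near background, where GCRMA values order arrays poorly.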

Other observations

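The wide values of Sod1 1451124_at can be set out by replicate number, which is a label shared between the groups. The 3 mice numbered 5 lay within 0.23 of each other on the log2 scale (12.36 to 12.59), and those numbered 3 between 8.05 and 9.25. The 3 mice numbered 2 ran from 8.34 to 12.46 and those numbered 4 from 9.04 to 12.72. This was looked for after the values were seen and was not tested.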
